A study of Mus musculus with 24 samples.

Results

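The genes described here are 9 long noncoding RNAs named for the developing retina or the cell nucleus: Miat, Six3os1, Vax2os, Malat1, Neat1, Tug1, Gas5, Snhg1 and Snhg11. They were chosen by symbol, with earlier results of these data known. Counts were found for 8 of the 9 among 46603 annotated genes and 126602 counted features in all. Snhg1 was not analysed here. The data are RNA libraries of single mouse retinal organoids (MROs), which are pieces of retinal tissue grown in culture from pluripotent stem cells. All organoids came from the wildtype mouse embryonic stem cell line E14Tg2a and were kept under control conditions, with the solvent water added. According to the study's methods, the culture medium also held serum, and a synthetic retinoid was added for some days before sampling began. The organoids were sampled on day 20, 22, 25 or 30 of differentiation (D20, D22, D25, D30), with 6 individual organoids per timepoint. All 24 belong to 1 independent experiment with 1 cell line, so the p-values measure the spread between organoids of that experiment and not the spread between experiments.

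A long noncoding RNA is a transcript that is spliced or processed like an mRNA but acts without being translated. Some stay in the nucleus and form part of nuclear bodies: Malat1 gathers in speckles that hold splicing factors, and Neat1 is the scaffold of paraspeckles. Others are hosts whose introns release small nucleolar RNAs (snoRNAs), the guides of ribosomal RNA modification, and others lie beside a developmental transcription factor gene and are transcribed in the same tissue. In the retina, Miat, Six3os1 and Tug1 are known from studies of retinal cell fate and photoreceptor development.

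The genes lie on 7 mouse chromosomes (build GRCm38), and in GENCODE all but Snhg11 are noncoding. Miat (ENSMUSG00000097767) is at chr5:112213228-112229395 on the minus strand. Six3os1 (ENSMUSG00000093460) is at chr17:85600651-85618398 and Vax2os (ENSMUSG00000085794) at chr6:83692806-83712201, both on the minus strand. Malat1 (ENSMUSG00000092341) at chr19:5795690-5802672 and Neat1 (ENSMUSG00000092274) at chr19:5824708-5845478 are neighbours, both on the minus strand. Tug1 (ENSMUSG00000056579) is at chr11:3639785-3649673 on the minus strand. Gas5 (ENSMUSG00000053332) is at chr1:161034422-161038539 and Snhg11 (ENSMUSG00000044349) at chr2:158375638-158386145, both on the plus strand. GENCODE types Snhg11 as protein coding, whereas RefSeq lists it as a long noncoding RNA.

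Miat carries a repeated heptamer that is known to bind the branch point protein Sf1, and the longest annotated transcript, Miat-205, held TACTAAC 6 times in 9163 bases. Both stretches that hold these copies lie in the last exon, and the capitals mark TACTAAC, read on the transcribed strand only. They are shown because the levels of Miat and of its known binding proteins are compared below. The first stretch (GRCm38, chr5:112217309-112217460, minus strand) and the second (chr5:112216752-112216812, minus strand) read 5′ to 3′ as follows.
Miat first repeat stretch: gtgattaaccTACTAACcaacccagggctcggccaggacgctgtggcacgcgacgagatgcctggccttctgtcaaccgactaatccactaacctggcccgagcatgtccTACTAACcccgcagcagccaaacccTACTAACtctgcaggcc
Miat second repeat stretch: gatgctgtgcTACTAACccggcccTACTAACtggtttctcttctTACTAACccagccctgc
Of 55341 gene symbols with a GENCODE transcript, 4 (0.00723%), Miat among them, had a transcript with at least 6 copies, the number found in Miat. That cutoff was taken from Miat, so its match was set in advance and the share describes the pattern only. Transcripts were not matched in length. The longest Neat1 transcript held 1 copy and those of the other members held 0.

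Malat1 and the long form of Neat1 are known to end without a poly(A) tail, in a triple helix formed by a pair of U-rich runs and an A-rich run near the 3′ end. The libraries were made from total RNA after removal of ribosomal RNA, not by poly(A) selection. The 3′ stretches are shown since these RNAs are compared as a pair below. Capitals mark TTTCTTTT, TTTTGCTTTT and AAAAAGCAAAA, searched on the transcribed strand. The Malat1 stretch is at chr19:5795972-5796073 (GRCm38, minus strand) and the Neat1 stretch at chr19:5824708-5824805 (minus strand).
Malat1 3 prime stretch: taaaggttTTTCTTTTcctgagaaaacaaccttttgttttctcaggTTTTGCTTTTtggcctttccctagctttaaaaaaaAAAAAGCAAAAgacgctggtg
Neat1 3 prime stretch: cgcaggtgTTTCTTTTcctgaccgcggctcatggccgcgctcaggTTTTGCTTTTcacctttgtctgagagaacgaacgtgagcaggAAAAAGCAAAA
Malat1 and Neat1 were the 2 gene symbols of 55341 (0.00361%) with a transcript that held these runs in this order and within 60 bases of each other. The runs searched for were those known from these 2 RNAs, so their match was set in advance and the share describes the pattern only. The annotated Neat1-201 transcript ends with the A-rich run, while the annotated Malat1-201 transcript continues beyond it.

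Gas5 is known to begin with a run of pyrimidines, as the mRNAs of ribosomal proteins do, and this start is shown because Gas5 is set beside ribosomal protein genes below. RefSeq (GRCm38.p6) has more than 1 start for Gas5, and the window shown was chosen because its start has a C followed by at least 4 pyrimidines. In this window, chr1:161035116-161035215 on the plus strand, the capitals mark the run of C and T that begins at the annotated start.
Gas5 start window: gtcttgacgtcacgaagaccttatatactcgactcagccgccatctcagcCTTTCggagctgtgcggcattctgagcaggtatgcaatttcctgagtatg
A C followed by at least 4 pyrimidines stood at the annotated start in 823 of 32851 RefSeq windows (2.51%). Since the Gas5 window was chosen for this pattern, its match is not a result to set against that share.

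Values are normalized CPM, which are reads as a share of the library total, scaled by TMM (trimmed mean of M values). The reads counted on features ranged from 13634846 to 19477108 over the 24 libraries, and 3 reads correspond to between 0.154 and 0.22 CPM, for counting error only. No organoid pair of a timepoint agreed within sampling noise. The labelled tissue was checked with marker genes: all 8 photoreceptor markers were counted, 7 rose from D20 to D30, and their summed level was 927 to 1473 CPM per organoid at D20 and 3088 to 5449 CPM at D30. All 6 markers of dividing progenitors fell from D20 to D30, and their sum was 776 to 987 CPM at D20, 444 to 730 CPM at D22 and 185 to 564 CPM at D25, before it reached 181 to 305 CPM at D30. The 5 markers of pigment cells summed to 134 to 240 CPM per organoid at D20 and 44.6 to 2730 CPM at D30. The highest sums of D30 were 2730 CPM in replicate 2 and 2532 CPM in replicate 6. The part of pigment cells in the levels of the members was not tested. In these bulk samples, fewer cells of a type and less RNA per cell cannot be told apart. The share of reads that fell outside every counted feature ranged from 44.1 to 46.7% at D20, from 44.6 to 49.0% at D22, from 41.9 to 44.9% at D25 and from 37.5 to 43.9% at D30.

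**Figure D1:**
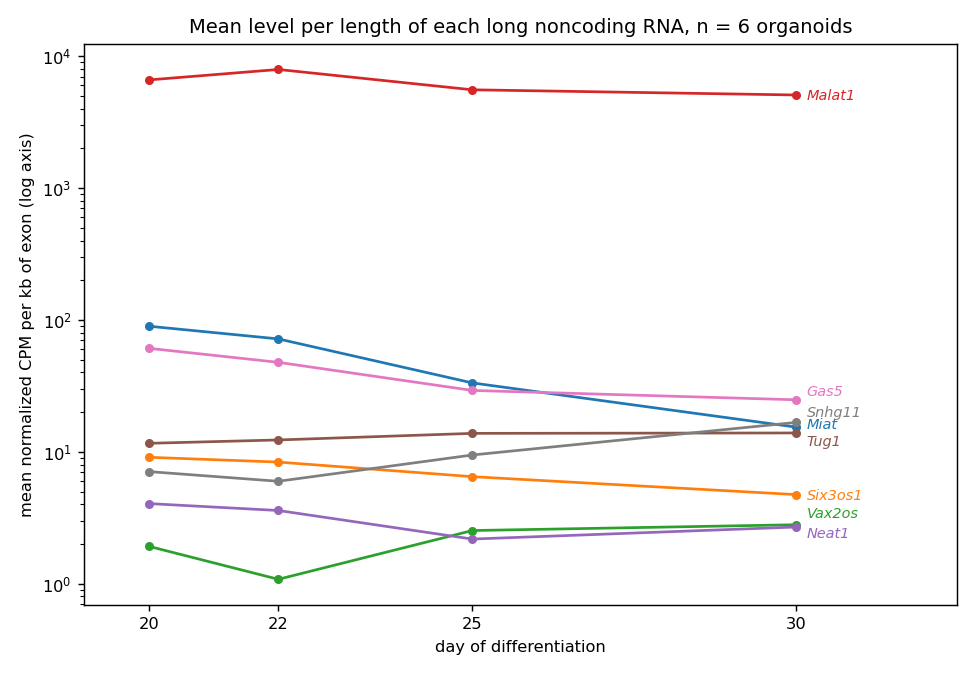
Mean normalized CPM per kb of exon (log axis) of 8 long noncoding RNAs against the day of differentiation, with 1 line per gene and n = 6 organoids per point. Malat1 stays between 5076 and 7923 CPM per kb, Miat falls from 89.6 to 15.4 CPM per kb, and Snhg11 rises from 7.08 to 16.7 CPM per kb.

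Levels of different genes were compared per kb of exon, with exon lengths of GENCODE M21, which may differ from the exons on which the reads were counted. Malat1 was the most abundant at each timepoint, with a mean of 6602 ± 245 CPM per kb at D20 (SD, n = 6) and 5076 ± 352 CPM per kb at D30. It held between 2.91 and 6.68% of all reads counted on features. At D20 the order was Malat1, Miat (89.6 CPM per kb), Gas5 (60.9), Tug1 (11.6), Six3os1 (9.09), Snhg11 (7.08), Neat1 (4.05) and Vax2os (1.92 CPM per kb). In that order the ranges of Six3os1 and Snhg11, and of Snhg11 and Neat1, overlapped between organoids, and the other neighbours did not overlap. At D30 the order was Malat1, Gas5 (24.8 CPM per kb), Snhg11 (16.7), Miat (15.4), Tug1 (13.9), Six3os1 (4.74), Vax2os (2.80) and Neat1 (2.69 CPM per kb). There, the neighbours among Gas5, Snhg11, Miat and Tug1 overlapped, as did those among Six3os1, Vax2os and Neat1, while Tug1 did not overlap with Six3os1. Miat, next after Malat1 at D20, was within the range of Snhg11 and Tug1 at D30.

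The design compares each timepoint with the one before and the last with the first, and asks when in the maturation of the organoid a transcript changes. All 24 organoids entered 1 model, in which edgeR's quasi-likelihood test compared the counts. The p-values were adjusted after Benjamini-Hochberg over 46949 features, and 0.01 was the threshold. At this threshold 6 of the 8 long noncoding RNAs differed among the 4 timepoints in the joint test (Miat, Six3os1, Malat1, Neat1, Gas5 and Snhg11), against 27.2% of all tested features and 43.9% of the annotated genes. From D20 to D30, 4 fell (Miat, Six3os1, Malat1 and Gas5) and 1 rose (Snhg11). Among annotated genes, 16.7% fell and 25.1% rose in this comparison, and 26.8% of all features passed in either direction. The groups of organoids did not overlap between D20 and D30 for those 4 that fell, while 29.7% of annotated genes had no overlap in either direction. Since the members were chosen with earlier results of these data known, these shares and those below describe the counts and test no excess.

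Of the intervals between neighbouring timepoints, the one from D22 to D25 had the most calls. Miat, Malat1 and Gas5 fell in it (3 of 8), against 2.92% of annotated genes lower, 7.33% higher and 5.28% of all features in either direction. Between D25 and D30, Miat alone fell (1 of 8), against 2.83% of annotated genes lower, 4.55% higher and 3.51% of all features in either direction. Between D20 and D22, edgeR's quasi-likelihood test called 0 of 8, as did DESeq2, while 3 had an unadjusted p under 0.05. In that interval 0.763% of annotated genes were lower, 2.56% were higher and 1.9% of all features passed in either direction.

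**Figure D2:**
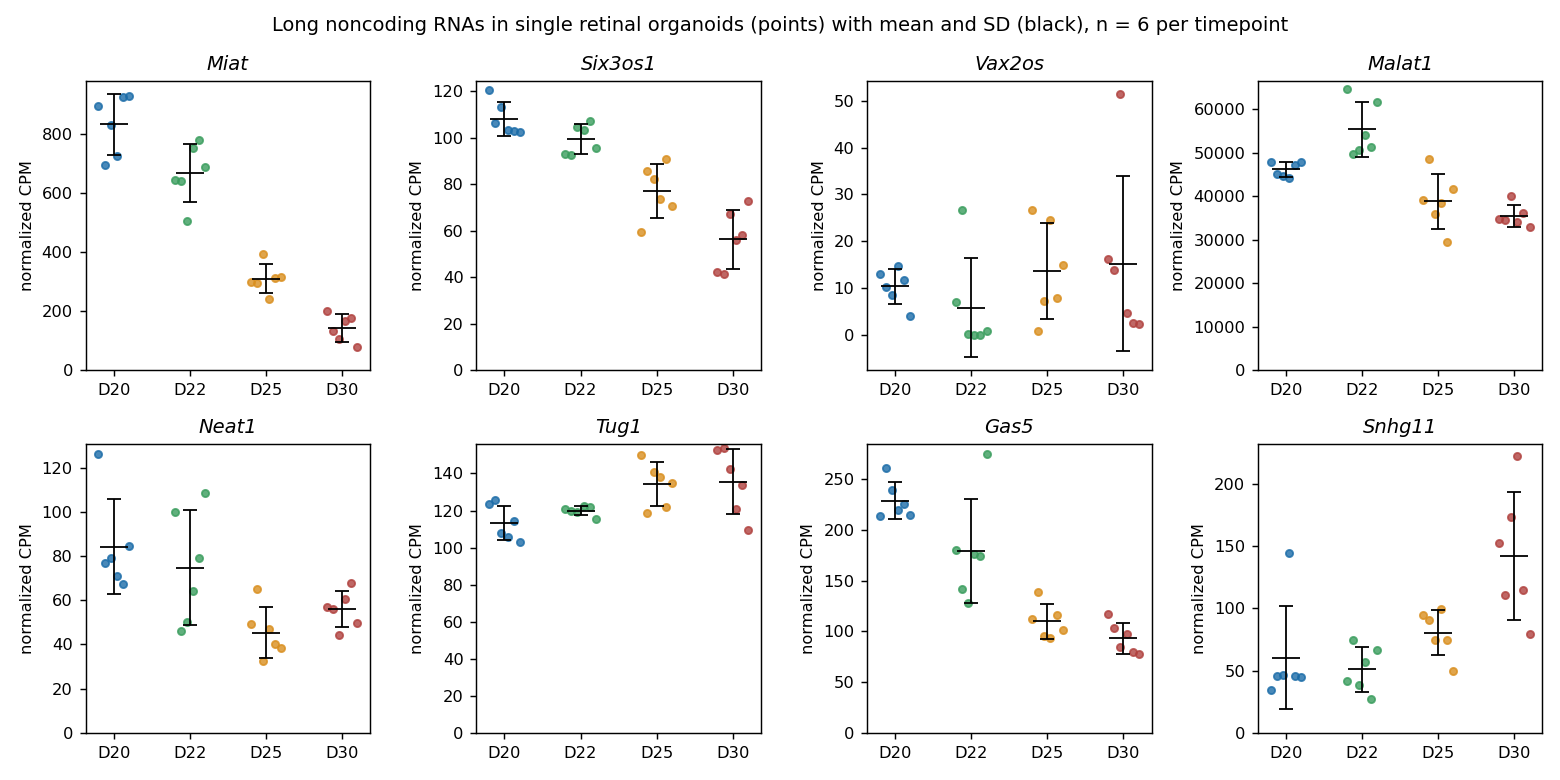
Normalized CPM of each long noncoding RNA by timepoint, with 1 point per organoid and the mean with SD in black (n = 6 per timepoint, linear axes that differ between panels). Miat falls from a mean of 832.8 to 143.4 CPM without overlap between D20 and D30, Tug1 has means of 113.3 and 135.5 CPM at D20 and D30, and 1 organoid at D20 has 144.4 CPM of Snhg11.

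Miat, also known as Gomafu, is a nuclear RNA of neural and retinal precursors. It had the largest log2 fold change of the 8 from D20 to D30. The lowest, median and highest organoid had 693.6, 862.6 and 929.1 CPM at D20. The same 3 values were 505.5, 664.9 and 778.7 CPM at D22, 240.7, 305.3 and 393.3 CPM at D25, and 76.94, 150.8 and 201.4 CPM at D30. D20 and D22 overlapped, and from then on every organoid of a later timepoint was below every organoid of the earlier one.

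The mean of Miat was 832.8 ± 102.9 CPM at D20 and 143.4 ± 47.05 CPM at D30 (SD, n = 6), a log2 fold change of -2.54 (SE 0.16, adjusted p = 2.173e-13, edgeR), which is 5.81-fold lower. The fall was of the same size in both later intervals: the log2 fold change was -1.11 for D22 to D25 (SE 0.16, adjusted p = 2.843e-05) and again -1.11 for D25 to D30 (SE 0.16, adjusted p = 1.732e-05). From D20 to D22 the log2 fold change was -0.32 (SE 0.15, adjusted p = 0.2735). The markers of dividing progenitors fell over the same days (sums above), and their part in the result was not tested. Opposite to Miat, the gene Gm26953 shares 24.3% of the Miat exon bases and had 549 reads over all 24 organoids, against 1388 reads or more of Miat in each organoid.

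The genes of 3 proteins known to bind Miat did not share a direction. Sf1 had 96.77 CPM at D20, 97 CPM at D25 and 95.25 CPM at D30 (log2 fold change from D20 to D30 -0.02, SE 0.08, adjusted p = 0.8616, edgeR). Celf3, a neuronal splicing regulator, had means of 61.02 CPM at D20, 78.25 CPM at D22, 76.49 CPM at D25 and 46.14 CPM at D30. Between D25 and D30 Celf3 fell with a log2 fold change of -0.73 (SE 0.12, adjusted p = 0.0001579, edgeR). Qk, the quaking RNA binding protein, rose from 219 to 391.7 CPM in the same interval (log2 fold change 0.84, SE 0.20, adjusted p = 0.005947), with an SD of 190.8 CPM between the organoids of D30. The 5 markers of Mueller glia summed to 539 to 787 CPM per organoid at D25 and 890 to 3307 CPM at D30, and their part in the level of Qk was not tested.

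Six3os1 is transcribed beside Six3, the homeobox gene needed for eye and forebrain formation, on the opposite strand. Its lowest, median and highest organoid had 102.5, 104.7 and 120.4 CPM at D20, and 92.54, 99.46 and 107.0 CPM at D22. At D25 these values were 59.35, 77.73 and 90.93 CPM, and at D30 they were 41.47, 57.12 and 72.73 CPM. All organoids of D25 were below those of D22, and all of D30 were below those of D20.

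The log2 fold change of Six3os1 from D20 to D30 was -0.94 (SE 0.12, adjusted p = 1.742e-07, edgeR). The steps from D22 to D25 (log2 fold change -0.37, SE 0.12, adjusted p = 0.03848) and from D25 to D30 (-0.45, SE 0.12, adjusted p = 0.01483) did not pass 0.01. The step from D25 to D30 passed when D25 replicate 1 (log2 fold change -0.52), D30 replicate 3 (-0.51) or D30 replicate 6 (-0.54) was left out. The early spread was small, with a coefficient of variation of 6.72% at D20 and 6.42% at D22, against a median of 13.8% and 14.9% over well counted annotated genes. At D30 it was 22.5% against 16.9%. The annotated genes were not matched to Six3os1 in reads, and counting error bears on the spread of genes with fewer reads.

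Six3 fell further than Six3os1, from 55.75 ± 4.318 CPM at D20 to 12.56 ± 3.415 CPM at D30 (SD, n = 6), a log2 fold change of -2.15 (SE 0.15, adjusted p = 2.215e-12, edgeR). The ratio of reads within each organoid does not depend on the scaling of libraries, and the mean log2 ratio of Six3os1 to Six3 was 0.95 ± 0.11 at D20 and 1.23 ± 0.12 at D22 (SD, n = 6). It was 1.68 ± 0.19 at D25 and 2.18 ± 0.18 at D30. The difference from D20 to D30 was 1.22, with no overlap between organoids (2-sided exact permutation test, p = 0.002165, adjusted p = 0.01299 over 12 tests). This p is the smallest that 6 against 6 organoids can give. Over 12 tests, a comparison at this p passes 0.01 after adjustment only where several tests are that low. A ratio that did not pass is therefore not shown to be unchanged.

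The 3 steps in between had differences of 0.28, 0.45 and 0.50 in the log2 ratio of Six3os1 to Six3, each with the same adjusted p = 0.01299 in the exact permutation test, which does not reach 0.01. The exons of the 2 genes share 106 bases on opposite strands. The counting used strand, as far as the files show: of 120 annotated genes inside exons of a gene on the opposite strand, 100 (83.3%) had reads, against 30 of 239 (12.6%) inside exons on the same strand.

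**Figure D3:**
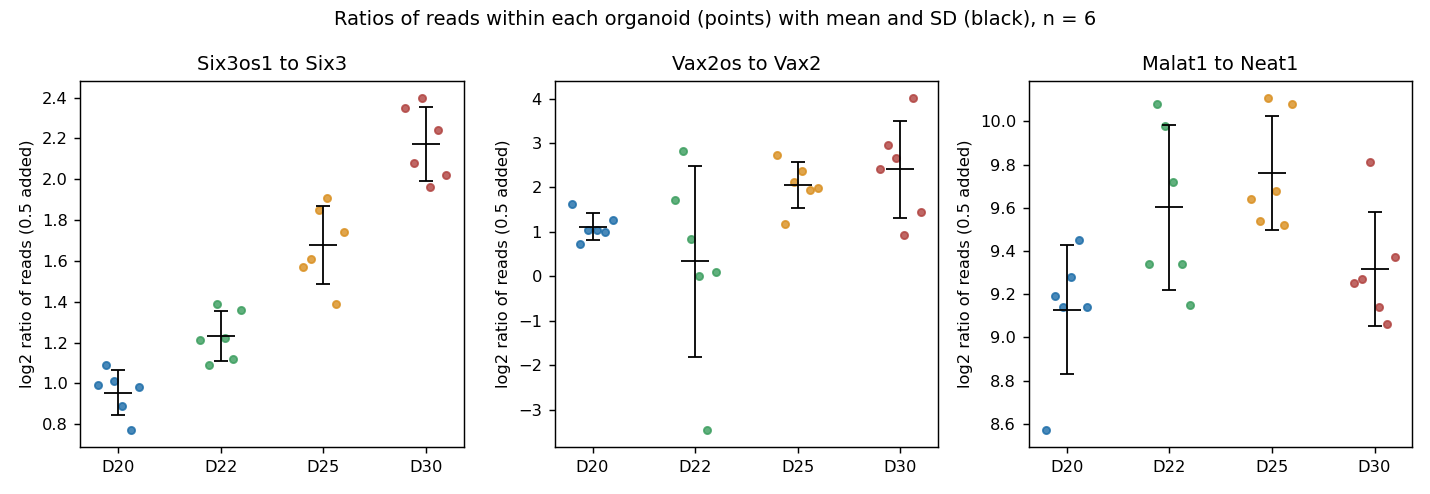
log2 ratio of reads within each organoid (0.5 added to each count) by timepoint for Six3os1 to Six3, Vax2os to Vax2 and Malat1 to Neat1, with 1 point per organoid and the mean with SD in black (n = 6). The ratio of Six3os1 to Six3 is 0.95 at D20 and 2.18 at D30 without overlap, while the organoids of the other pairs overlap between D20 and D30.

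Vax2os is transcribed from the opposite strand at Vax2, a homeobox gene of the ventral retina, and varied more between organoids than any other of the 8 at D22, D25 and D30. The lowest, median and highest organoid had 4.033, 10.94 and 14.78 CPM at D20, and 0, 0.6008 and 26.59 CPM at D22. At D25 these were 0.8367, 11.4 and 26.69 CPM, and at D30 they were 2.328, 9.248 and 51.38 CPM. All timepoints overlapped, and reads per organoid ran from 0 to 887.

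No comparison of Vax2os passed 0.01 in edgeR's quasi-likelihood test, with adjusted p from 0.4044 to 0.9626. D22 replicates 4 and 5 had 0 reads, which allows up to 0.21 and 0.215 CPM. The coefficient of variation was 36.5% at D20, below the 68.6% of Snhg11, and then 181%, 75% and 123% at the later timepoints. The log2 fold change from D20 to D30 was 0.55 (SE 0.83), and it turned to -0.39 without D30 replicate 3, the organoid with 51.38 CPM.

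Vax2 itself was low, with means of 4.865 CPM at D20, 1.201 CPM at D22, 2.74 CPM at D25 and 2.704 CPM at D30. Its highest organoid at D30, with 8.05 CPM, was also replicate 3, and its highest at D22, with 3.70 CPM, was replicate 2, as for Vax2os. The mean log2 ratio of Vax2os to Vax2 was 1.11 ± 0.30 at D20 and 0.34 ± 2.14 at D22 (SD, n = 6), then 2.06 ± 0.52 at D25 and 2.40 ± 1.10 at D30. The difference from D20 to D30 was 1.29 (exact permutation test, adjusted p = 0.04762).

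Malat1 is a nuclear RNA that most cell types express at a high level. Its lowest, median and highest organoid had 44141, 46133 and 47845 CPM at D20, and 49601, 52725 and 64654 CPM at D22. At D25 these were 29418, 38741 and 48493 CPM, and at D30 they were 32914, 34713 and 39971 CPM. Every organoid of D22 was above every organoid of D20 and of D25, and every organoid of D30 was below those of D20.

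Malat1 fell from D22 to D25 with a log2 fold change of -0.51 (SE 0.08, adjusted p = 0.0001214, edgeR). From D20 to D30 the log2 fold change was -0.38 (SE 0.08, adjusted p = 0.0004345), which is 1.3-fold lower. From D20 to D22 it was 0.26 (SE 0.08, adjusted p = 0.05801), with adjusted p = 0.009958 in a fit of these timepoints alone. The spread was 3.71% of the mean at D20, the lowest of the 8 at that timepoint, and 16.3% at D25. The share of reads outside counted features also reached its highest value at D22 and its lowest at D30 (ranges above), and its part in the result was not tested. On the opposite strand, Gm37376 shares 6.49% of the Malat1 exon bases and had 55352 reads over the 24 organoids, against 494996 or more of Malat1 in each.

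Neat1 builds paraspeckles, nuclear bodies that hold back certain RNAs and proteins. The lowest, median and highest organoid had 67.29, 78.0 and 126.1 CPM at D20, and 45.92, 71.64 and 108.7 CPM at D22. At D25 these were 32.44, 43.46 and 65.19 CPM, and at D30 they were 44.43, 56.59 and 67.69 CPM. The timepoints overlapped in all comparisons.

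The joint test of Neat1 over the 4 timepoints passed (adjusted p = 0.0009032, edgeR), and no single comparison did. From D22 to D25 the log2 fold change was -0.72 (SE 0.19, adjusted p = 0.01014), and from D20 to D30 it was -0.59 (SE 0.19, adjusted p = 0.01213). Both values lie just beyond the threshold and crossed it under several alternatives: the first with adjusted p = 0.005131 in DESeq2 and the second with adjusted p = 0.009982 with a replicate block. Annotated genes alone gave -0.81 (adjusted p = 0.004179) and -0.68 (adjusted p = 0.004388). The first also passed without D22 replicate 2 (-0.83), D22 replicate 3 (-0.81) or D25 replicate 2 (-0.85), and the second without D30 replicate 5 (-0.65).

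Malat1 and Neat1 were compared as a pair through the ratio of their reads in each organoid. The mean log2 ratio was 9.13 ± 0.30 at D20 and 9.60 ± 0.38 at D22 (SD, n = 6), then 9.76 ± 0.27 at D25 and 9.32 ± 0.26 at D30. The step from D25 to D30 was -0.44 (exact permutation test, adjusted p = 0.04762), and the step from D20 to D22 was 0.47 (adjusted p = 0.06679). From D20 to D30 the ratio differed by 0.19 (adjusted p = 0.4502). Organoids overlapped in each of these comparisons, and none passed 0.01.

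Tug1 is a broadly expressed RNA whose loss is known to disturb photoreceptors. Its lowest, median and highest organoid had 102.8, 111.1 and 125.5 CPM at D20, and 115.4, 120.2 and 122.2 CPM at D22. At D25 these were 118.4, 136.6 and 149.9 CPM, and at D30 they were 109.7, 138.1 and 153.5 CPM. Neighbouring timepoints overlapped, and so did D20 and D30.

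No comparison of Tug1 passed 0.01. The log2 fold change from D20 to D30 was 0.26 (SE 0.09, adjusted p = 0.01784, edgeR), and the joint test gave adjusted p = 0.03654. It passed with DESeq2 (0.32, adjusted p = 0.003395), with the size factors of DESeq2 (0.32, adjusted p = 0.004846) and without D30 replicate 6 (0.31, adjusted p = 0.003547). At D22 the 6 organoids had a coefficient of variation of 2.11%. Tug1 shares 483 exon bases with Morc2a on the opposite strand.

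Gas5 is a host of snoRNAs whose spliced RNA is known to be degraded when it is translated. The lowest, median and highest organoid had 213.7, 222.7 and 261.1 CPM at D20, and 127.8, 175.3 and 275.1 CPM at D22. At D25 these were 94.0, 107.3 and 139.2 CPM, and at D30 they were 77.83, 91.03 and 116.9 CPM. All organoids of D30 were below those of D20, while D22 overlapped with its neighbours. Several snoRNA genes, Snord47, Snord78 and Snord80 among them, lie within exon bases of Gas5 on the same strand and had 0 reads in all 24 organoids. Reads that are ambiguous between features were not counted, and of all annotated genes inside exons on the same strand only 12.6% had reads. These counts therefore cannot show whether the snoRNAs were present.

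From D20 to D30 Gas5 fell with a log2 fold change of -1.29 (SE 0.14, adjusted p = 6.725e-09, edgeR), which is 2.45-fold lower. From D22 to D25 the log2 fold change was -0.71 (SE 0.14, adjusted p = 0.0007821). From D20 to D22 it was -0.35 (SE 0.13, adjusted p = 0.1382), and without D22 replicate 6 it was -0.52 and passed (adjusted p = 0.00562). That organoid had 275.1 CPM, and the others of D22 had at most 179.8 CPM.

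Snhg11 is a snoRNA host known from neurons, and from D20 to D30 it moved against the direction of Gas5. Its lowest, median and highest organoid had 34.68, 45.67 and 144.4 CPM at D20, and 27.41, 49.5 and 74.88 CPM at D22. At D25 these were 49.91, 82.76 and 99.15 CPM, and at D30 they were 79.1, 133.7 and 222.0 CPM. The highest organoid of D20, replicate 4, lay within the range of D30, and the other 5 of D20 had at most 46.36 CPM, below all of D30.

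Snhg11 rose from D20 to D30 with a log2 fold change of 1.24 (SE 0.28, adjusted p = 0.0007904, edgeR), which is 2.35-fold. Without D20 replicate 4 the log2 fold change was 1.71 (adjusted p = 8.134e-07). The single steps did not pass, with 0.66 from D22 to D25 (SE 0.28, adjusted p = 0.1338) and 0.82 from D25 to D30 (SE 0.28, adjusted p = 0.07792).

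Other neuronal genes were also high in D20 replicate 4, chosen here after their values were seen. Dlx6os1, a long noncoding RNA of inhibitory forebrain neurons, had 49.1 CPM there and at most 5.76 CPM in the other organoids of D20. Gad1, which makes the transmitter GABA and is also used by amacrine cells, had 31.5 CPM there and at most 8.39 CPM in the others. Dlx1, a homeobox gene of inhibitory neurons, had 74.5 CPM there and at most 17.5 CPM in the others. At D30 the lowest, median and highest organoid had 0, 64.4 and 147 CPM of Dlx6os1. For Gad1 these values were 9.92, 43.7 and 67.3 CPM, and for Dlx1 they were 0.166, 58.5 and 108 CPM. High levels of these genes were therefore not limited to D20 replicate 4. The summed level of 4 markers of cortex type neurons was 41.6 CPM in D20 replicate 4, within the range of 4.77 to 190 CPM over D20.

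That sum was 2.97 to 12 CPM per organoid at D22, 4.95 to 265 CPM at D25 and 4.10 to 220 CPM at D30. The log2 fold changes of the 4 markers between D20 and D30 were 0.63 to 1.56 and did not pass 0.01 in edgeR's test. The 5 amacrine markers summed to 44.3 to 90.8 CPM at D20, 81 to 235 CPM at D22, 131 to 279 CPM at D25 and 71.9 to 155 CPM at D30. From D20 to D30, 2 of the 5 were higher and 0 lower, while from D25 to D30, 1 was higher and 3 were lower. The 4 bipolar markers summed to 14.7 to 33.6 CPM at D20 and 77.5 to 129 CPM at D30, without overlap and with 3 of 4 higher. D20 replicate 4 had the highest sum of that timepoint for both the amacrine (90.8 CPM) and the bipolar markers (33.6 CPM, next 33.4 CPM). Gad1, named above because it was high in this organoid, is among the 5 amacrine markers and gave 31.5 CPM of the amacrine sum. The rank of the amacrine sum is therefore not separate from that choice. The part of amacrine, bipolar, cortex type and inhibitory forebrain cells in the level of Snhg11 was not tested.

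**Figure D4:**
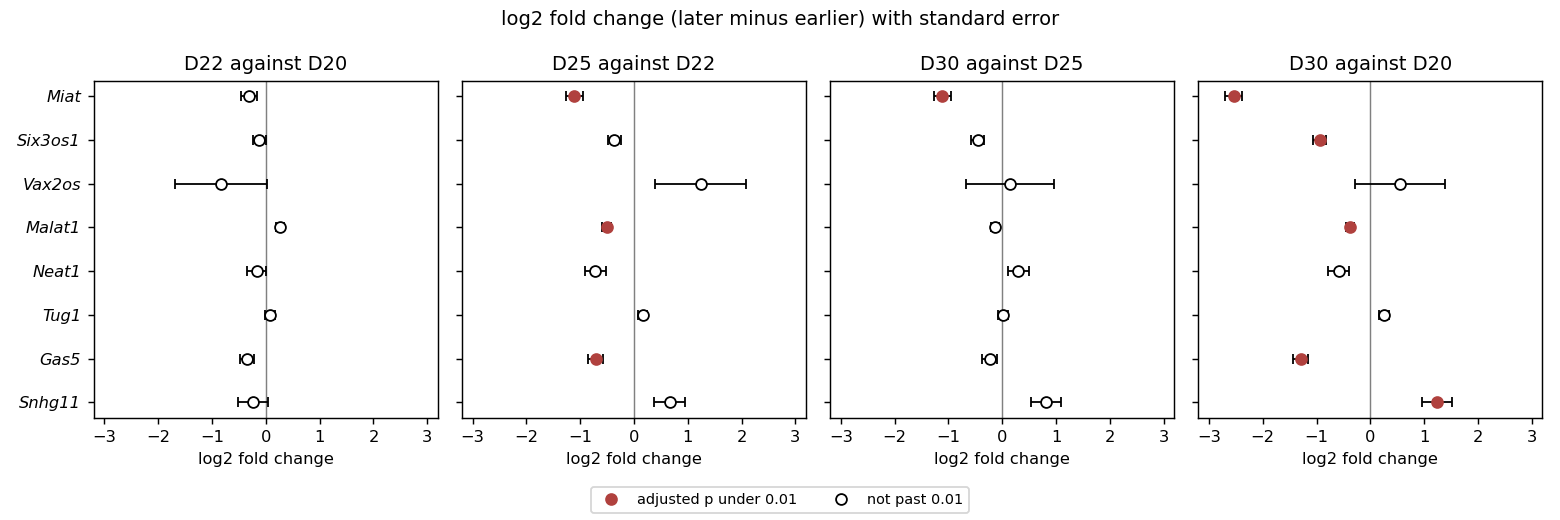
log2 fold change (later minus earlier, x axis) with its standard error for the 8 long noncoding RNAs in 4 comparisons, with filled points where the adjusted p was under 0.01 in edgeR. Miat has the largest falls (-1.11, -1.11 and -2.54 in the last 3 comparisons), and Snhg11 is the only filled point on the positive side (1.24).

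Related genes were grouped by role, and their counts are a description beside the background above. Among snoRNA host genes, 16 of 21 symbols had counts and 15 were tested, Gas5 and Snhg11 included. From D20 to D30, 8 fell and 2 rose, with a median log2 fold change of -0.76 against 0.10 over annotated genes. Epb41l4aos fell the most (log2 fold change -2.37, SE 0.32, adjusted p = 5.321e-07, edgeR), from 25.4 to 4.933 CPM. Dancr (-1.76, adjusted p = 3.364e-06) and Zfas1 (-1.52, adjusted p = 1.009e-10) fell more than Gas5. Besides Snhg11, Snhg14, a transcript of the imprinted Prader-Willi region, rose (0.55, adjusted p = 0.009853), and it is named after its values were seen. From D22 to D25, 5 of the 15 fell and 0 rose, and the median was -0.58 against 0.10.

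Of 12 genes for paraspeckle proteins, the partners of Neat1, 5 fell and 0 rose from D20 to D30, with a median log2 fold change of -0.27. Nono (-0.68, SE 0.08, adjusted p = 1.262e-07, edgeR) and Sfpq (-0.44, SE 0.06, adjusted p = 1.011e-06) are core proteins on which paraspeckles depend, and Hnrnph3 (-0.55) and Pspc1 (-0.34) fell as well. In each interval between neighbouring timepoints at most 1 of the 12 passed.

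Of 14 genes for nuclear speckle proteins and splicing factors, 6 fell and 2 rose from D20 to D30, with a median of -0.25. Srrm1, a splicing coactivator, fell the most (-0.82, SE 0.09, adjusted p = 5.605e-09, edgeR), and Srsf11 fell as well (-0.48). Son, a scaffold of the speckle, rose from 750.4 to 1061 CPM (0.50, SE 0.08, adjusted p = 5.619e-06), and Qk rose (0.72, adjusted p = 0.003731).

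Of 24 symbols of other retinal and neural long noncoding RNAs, 21 had counts and 18 were tested. Of these, 4 rose and 4 fell between D20 and D30. Mir124a-1hg, the host of the neuronal microRNA miR-124, rose from 297.1 to 818.6 CPM (log2 fold change 1.46, SE 0.13, adjusted p = 3.976e-10, edgeR). Otx2os1, beside the photoreceptor regulator Otx2, rose from 1.779 to 7.394 CPM (2.05, adjusted p = 5.308e-06), and Zfhx2os rose from 0.2814 to 1.688 CPM (2.55, adjusted p = 0.001346), with 0 to 11 reads per organoid at D20. Mirg, a transcript of the imprinted Dlk1-Dio3 region, fell from 83.22 to 18.87 CPM (-2.14, adjusted p = 2.303e-11).

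Of 13 genes beside the members on the chromosome, 10 were tested, and from D20 to D30 Six3 was the only 1 that fell. Slc3a2, which lies beside Snhg1, rose (log2 fold change 0.90, adjusted p = 2.796e-07, edgeR), and Ralgapb rose (0.51, adjusted p = 4.856e-05). Vax2 had a log2 fold change of -0.84 (SE 0.65, adjusted p = 0.329).

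**Figure D5:**
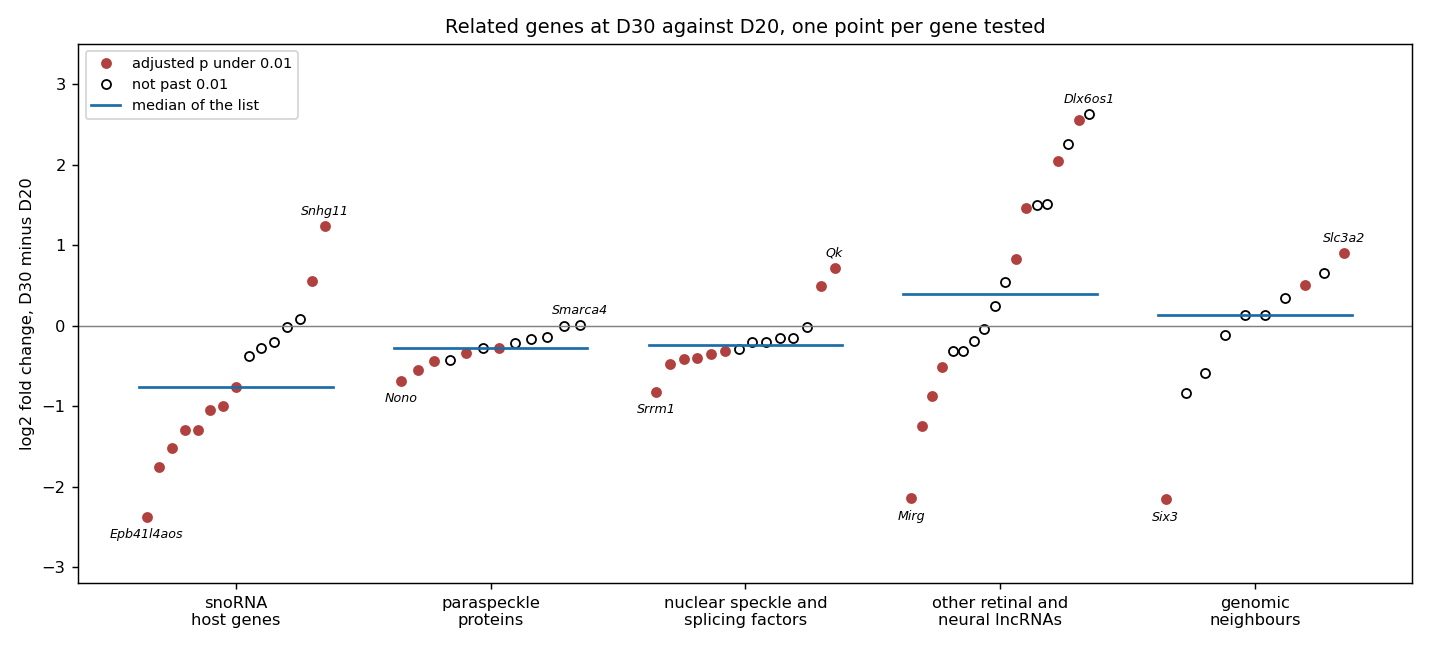
log2 fold change from D20 to D30 of every tested gene in 5 lists (x axis, 1 point per gene in rising order), filled where the adjusted p was under 0.01 in edgeR, with the median of each list as a line. The snoRNA host genes have a median of -0.76 and run from -2.37 (Epb41l4aos) to 1.24 (Snhg11).

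The pattern of each member over the 24 organoids was set beside 10832 well counted annotated genes by Pearson's r of log2 CPM, and r of the deviations from the timepoint means is given as well. These values are descriptions, since organoids of a timepoint share its mean and all genes of a library share its depth. For Miat the most similar genes were Mex3a (r = 0.982, 0.90 for deviations), Bcl7a and Baz1a. Mex3a, an RNA binding protein of proliferating cells, went from 175 ± 6.96 CPM at D20 to 54.4 ± 17.8 CPM at D30 (SD, n = 6).

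For Six3os1 the most similar genes were Rax (r = 0.970, 0.89 for deviations), Six6 (0.969 and 0.86) and Six3 (0.957 and 0.82), all of them homeobox genes of the eye field. Rax went from 156 ± 18.1 CPM at D20 to 70.3 ± 17.4 CPM at D30, and Six6 from 122 ± 15.3 to 42.5 ± 11.8 CPM. The genes near the top for Vax2os (Tle4, Cdo1 and Edem1) had r between 0.710 and 0.714 only.

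For Malat1 they were Gm28043 (r = 0.919), the splicing factor Rbm25 (0.896, 0.76 for deviations) and the splicing kinase Prpf4b (0.893). For Neat1 they were Aebp2 (0.901), Nabp1 (0.899, 0.90 for deviations) and Nampt (0.895), and for Tug1 Bmpr2 (0.872), Anapc1 and Fbxo28. Nabp1 was highest at D20 in replicate 1 (137 CPM, others at most 101 CPM), the organoid that also had the most Neat1.

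For Gas5 they were the ribosomal protein genes Rpl23 (r = 0.968, 0.81 for deviations) and Rps9 (0.967 and 0.79) and the pseudogene Gm9794 (0.968). Rpl23 went from 918 ± 101 CPM at D20 to 277 ± 36.1 CPM at D30, and at D22 it was highest in replicate 6 (996 CPM, others at most 675 CPM), as Gas5 was. For Snhg11 they were Tmem130 (r = 0.957, 0.91 for deviations), Trank1 (0.902) and Slc24a3 (0.891). Tmem130, a membrane protein gene, had 38.7 CPM in D20 replicate 4 and at most 11.3 CPM in the other organoids of D20.

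Between members, the deviations from the timepoint means went together for Neat1 and Gas5 (r = 0.59 over 24 organoids) and for Malat1 and Neat1 (0.56), and in opposite directions for Six3os1 and Tug1 (-0.59). Over all 28 pairs these were the values farthest from 0. Miat and Six3os1, which both fell over time (r = 0.81 without removal of the timepoint means), had r = -0.38 between their deviations.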

How the data were processed

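RNA of 24 single organoids was depleted of ribosomal RNA and sequenced as strand-specific single-end libraries. According to the study's methods and the submitters' processing notes, the authors aligned reads with HISAT2 to GRCm38/mm10, assembled further loci with StringTie (version 1.3.3) and counted reads with HTSeq (version 0.6.1). The deposited values are counts of reads per feature, whole numbers without normalization. The counting settings for strand are not given in the sources used here. Reads that the deposited tables list as ambiguous between features (0.457 to 0.648% of reads) and as outside all features stayed out of library sizes and tests. Samples were grouped by their titles.

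Features entered the test where the mean of their counts over all libraries, normalized with DESeq2 size factors, was 10 or more (46949 features, 16253 of them annotated genes, and 8 of 8 counted members). edgeR (version 4.0.16, R 4.3.3) gave TMM factors (0.906 to 1.06), dispersions and quasi-likelihood tests, and the common biological coefficient of variation was 0.3846. Standard errors were derived from the test statistic. log2 ratios of reads were tested by exact permutation of organoids. The ratio of Gas5 to Snhg1 was planned and not analysed here, which left 12 tests. DESeq2 (version 1.42.0) was an alternative. Symbols, exon lengths and transcripts came from GENCODE M21 (46005 of 46603 identifiers matched), which may not be the release used for counting, and start windows from RefSeq, which held 8 of the 9 members. The scripts were tested on simulated counts. Python (version 3.11.15) and matplotlib (version 3.10.9) served for the ratios and plots.

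The members and gene lists were chosen with earlier results of these data known. Named are all members, up to 4 genes per list with the largest change past 0.01 from D20 to D30, Six3 and Vax2, the 3 genes most similar to each member (mean of at least 100 normalized counts), and genes marked as added in the text, with Sf1 and Celf3 named for their known binding to Miat. The alternatives were other tests, scalings, filters and fits, and the omission of each organoid in turn.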

Additional observations from a re-analysis of the deposited data

Results flagged for a closer look

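In each timepoint the highest or lowest of the 6 organoids was compared with the others by Dixon's test for 8 RNAs and 3 ratios, 44 groups in all, of which chance alone would single out about 1 in 20. An organoid stood apart in 6 groups. Vax2os had 26.59 CPM in D22 replicate 2, with the others at most 7.11 CPM, and 51.38 CPM in D30 replicate 3, with the others at most 16.16 CPM. Neat1 had 126.1 CPM in D20 replicate 1, with the others at most 84.64 CPM, and in the same organoid the log2 ratio of Malat1 to Neat1 was 8.57, with the others at least 9.14. Gas5 had 275.1 CPM in D22 replicate 6, with the others at most 179.8 CPM. Snhg11 had 144.4 CPM in D20 replicate 4, with the others at most 46.36 CPM.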

How the results depend on the processing

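The counts of members past 0.01 were recomputed under 8 alternatives and with each organoid left out. From D20 to D22 the count was 0, it became 1 in a fit of the compared timepoints alone (Malat1), and it lay between 0 and 1 with 1 organoid left out, where Gas5 passed without D22 replicate 6. From D25 to D30 it was 1, it became 2 with library totals without TMM and with no filter on low counts (Six3os1 in both), and it lay between 1 and 2 with 1 organoid left out, where Six3os1 passed without D25 replicate 1, D30 replicate 3 or D30 replicate 6. From D22 to D25 it was 3 and stayed between 3 and 4, and from D20 to D30 it was 5 and stayed between 5 and 6. No call of a member was lost under any of these alternatives. The organoid numbers do not pair the samples: the deviations of same-numbered organoids had a mean correlation of -0.01 over 36 pairs, and with a replicate block 0, 3, 1 and 6 members passed in the 4 comparisons, with Neat1 added from D20 to D30. With a pseudocount of 0, the ratio of Vax2os to Vax2 could not be computed in the comparisons with D22, where counts of 0 occur. The other 10 tests stayed above 0.01, with adjusted p = 0.01082 for each step of Six3os1 to Six3 in the exact permutation test. Directions that turned were all of values that did not pass. Tug1 from D25 to D30 (0.02) was -0.06 with library totals, -0.03 with annotated genes only, and between -0.02 and 0.07 with 1 organoid left out. Vax2os from D25 to D30 (0.15) was -0.55 with the replicate block and between -0.79 and 0.45 with 1 organoid left out, and from D20 to D30 it lay between -0.39, without D30 replicate 3, and 0.78. Snhg11 from D20 to D22 (-0.24) lay between -0.39 and 0.23, the latter without D20 replicate 4. The cause was not tested. Scaling moved the balance of calls over annotated genes: from D25 to D30, 739 rose and 460 fell, against 574 and 689 with library totals and 743 and 744 with annotated genes only, and from D22 to D25, 1191 rose and 474 fell, against 1022 and 970 with annotated genes only. Vax2os had 0 reads in D22 replicates 4 and 5, Vax2 had 0 reads in D22 replicate 4, and Zfhx2os had 0 to 11 reads per organoid at D20, so counting error bears on their values.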
